A study of Mus musculus with 6 samples.

Results

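The genes described here are 9 matrix metalloproteinase genes (Mmp2, Mmp3, Mmp7, Mmp8, Mmp9, Mmp10, Mmp12, Mmp13 and Mmp14) and Timp1, the gene of a tissue inhibitor of these enzymes. They were taken by symbol, 10 of 24421 gene rows in each sample, and every one was found once. RNA was sequenced from colon of C57BL/6 mice labelled as 7 weeks of age. One group of 3 samples (DSS 1, 2 and 3) had chronic colitis induced by dextran sulfate sodium (DSS), which damages the epithelial lining of the colon, and the other 3 samples (control 1, 2 and 3) were control colon. The labels give no dose, no schedule of DSS and no sex, and nothing says that each sample is a separate animal. The p-values therefore rest on the spread between these samples alone, which may be technical. Levels are FPKM, sequenced fragments normalised for transcript length and for the number of mapped fragments, and so can be set side by side between genes.

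Matrix metalloproteinases are zinc-dependent endopeptidases that are made as inactive precursors and cut collagens, other matrix proteins, cytokines and cell surface proteins. Most are secreted and switched on by removal of the propeptide, by plasmin, by furin-like convertases or by one another, and TIMP proteins block the active site. In intestinal inflammation they are known as products of fibroblasts, neutrophils, macrophages and wounded epithelium, and many of their genes answer to interleukin-1, TNF and the AP-1 family of transcription factors.

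All of Mmp3, Mmp7, Mmp8, Mmp10, Mmp12 and Mmp13 lie in one cluster of metalloproteinase genes on chromosome 9, and the promoters of those other than Mmp8 are shown because each holds an AP-1 motif at a like distance from a listed start. The 100 bases before the start are printed 5′ to 3′ on the plus strand, from RefSeq on GRCm38.p6, with the AP-1 motif TGANTCA in capitals. Of 10 members 8 had an entry in the RefSeq promoter table. For Mmp12 the window is that of the second of 2 listed starts, and for Mmp7 that of the first of 2.
Mmp13, chr9:7272414-7272513: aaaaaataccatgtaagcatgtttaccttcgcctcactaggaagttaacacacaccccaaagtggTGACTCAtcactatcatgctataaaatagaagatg
Mmp3, chr9:7445722-7445821: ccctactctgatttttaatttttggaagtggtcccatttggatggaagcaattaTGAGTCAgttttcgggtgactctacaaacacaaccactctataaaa
Mmp10, chr9:7502242-7502341: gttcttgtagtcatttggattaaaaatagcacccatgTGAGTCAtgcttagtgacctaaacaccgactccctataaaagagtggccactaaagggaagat
Mmp7, chr9:7691990-7692089: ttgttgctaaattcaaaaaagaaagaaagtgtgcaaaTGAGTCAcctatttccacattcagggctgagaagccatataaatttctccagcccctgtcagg
Mmp12, chr9:7347274-7347373: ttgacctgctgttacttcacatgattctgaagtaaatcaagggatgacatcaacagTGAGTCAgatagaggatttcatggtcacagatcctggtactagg

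The motif began between 35 and 63 bases before the start in these 5 windows. Both strands were searched over 300 bases, 250 before and 50 after each start. Counted by window, it was in 5 of the 8 of the cluster members. It was not in the windows of Mmp8, of the second start of Mmp7 and of the first start of Mmp12, nor in those of Mmp14 and Timp1. Of the 32851 promoter windows listed, a share of 7.81% held it. Among the other metalloproteinase genes 3 of 11 with an entry held it, Mmp1a, Mmp1b and Mmp20, whose levels lay at or near 0 in all samples. Of 620 tested genes with the motif, these 5 members among them, 10.65% were higher in DSS. The share was 6.24% of the 9313 tested genes with an entry. The NF-kappaB motif was in none of the 10 member windows and in 4.51% of all windows. Of 595 tested genes with the NF-kappaB motif 9.24% were higher in DSS, so a raised share was not particular to AP-1. Of 7385 tested genes with the ETS core GGAAG 6.12% were higher in DSS. That core was in all 10 member windows and in 71.41% of all windows, and it overlapped the AP-1 motif in none of the member windows. In the 100 bases before the start of Timp1 it occurred at 98 and 69 bases from the start, in capitals here.
Timp1, chrX:20870066-20870165: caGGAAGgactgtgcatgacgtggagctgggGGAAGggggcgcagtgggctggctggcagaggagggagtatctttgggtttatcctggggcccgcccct

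In chronic colitis 9 of the 10 genes rose, and Mmp14 did not pass the test. The rises ran from about 2-fold for Mmp2, which was already well expressed in control colon, to Mmp7 and Mmp8, which were at or near 0 there. In the fit across all genes 6.34% of 12348 tested genes were higher in DSS and 2.56% were lower (limma, Benjamini-Hochberg adjusted p under 0.05). In the 9 genes that rose every DSS sample lay above every control sample, a pattern seen in 25.6% of tested genes. A gene was tested where at least 3 samples reached 1 FPKM. Mmp7, Mmp8, Mmp9 and Mmp12 passed that filter through the DSS samples alone and so had to differ, and the count of 9 is a description. Of the 205 genes that passed through DSS samples alone 66.8% were called higher. Errors given with ± are SDs of 3 samples, or SE where named. Differences are of log2(FPKM + 1), so changes of low genes are understated.

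**Figure D1:**
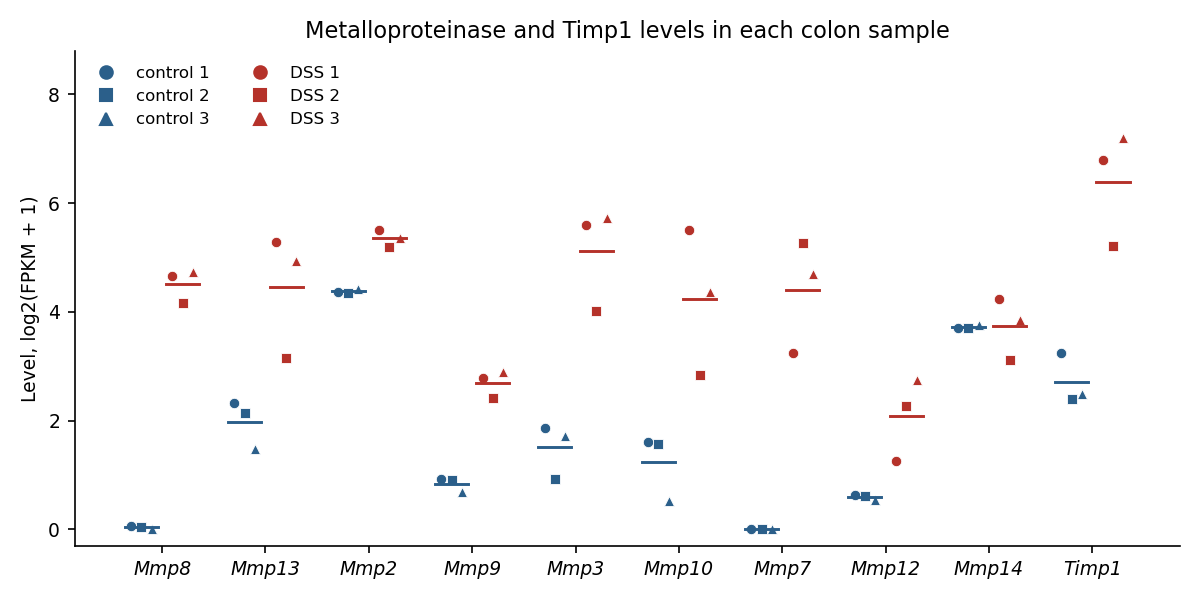
Level of each gene on the log2(FPKM + 1) scale (vertical axis) in control samples (blue) and DSS samples (red), with marker shapes for samples 1, 2 and 3 and a line at each group's mean. The groups stand apart for every gene but Mmp14, where DSS 1 and DSS 3 lie above the controls and DSS 2 lies below them.

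The collagenases, which cut the triple helix of fibrillar collagen, both rose. Mmp8, the collagenase stored in neutrophil granules, had levels of 24.4, 16.9 and 25.5 FPKM in DSS 1, 2 and 3, against 0.0422, 0.0353 and 0 FPKM in control 1, 2 and 3. The 3 DSS samples were within 1.51-fold of each other, and the controls were at or close to 0. Its log2 difference was 4.48 ± 0.20 SE (limma, adjusted p = 0.000102). Its place relative to Mmp7 depends on the settings: with a pseudocount of 0.1 the log2 difference was 7.47 for Mmp8 and 7.64 for Mmp7. Mmp13, the broad collagenase of mesenchymal cells, stood at 38.2, 7.84 and 29.7 FPKM in the colitis samples and at 4.02, 3.40 and 1.79 FPKM in controls. DSS 2 lay closer to the controls than to the other DSS samples, with 4.87-fold between the highest and lowest DSS sample. The mean of Mmp13 was 8.23-fold that of control colon, with a log2 difference of 2.48 ± 0.56 SE (limma, adjusted p = 0.0415).

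The gelatinases cut denatured collagen and the type IV collagen of basement membranes. Mmp2, a gelatinase of fibroblasts and other mesenchymal cells, had 44.5, 35.5 and 39.8 FPKM in the colitis samples and 19.6, 19.4 and 20.5 FPKM in controls. Both groups were tight, and Mmp2 doubled with little spread (2.01-fold, log2 difference 0.97 ± 0.14 SE, limma, adjusted p = 0.00881). Mmp9, the gelatinase of neutrophils and other leukocytes, had 5.90, 4.35 and 6.39 FPKM in the colitis samples and 0.894, 0.878 and 0.600 FPKM in controls. It was 7.01-fold higher (log2 difference 1.86 ± 0.19 SE, limma, adjusted p = 0.00206), and it stayed below Mmp2 in every sample.

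The stromelysins cut proteoglycans, laminin and fibronectin and activate other metalloproteinases. Mmp3, stromelysin-1, had 47.5, 15.2 and 52.04 FPKM in the colitis samples and 2.63, 0.911 and 2.30 FPKM in controls, a ratio of means of 19.6 (log2 difference 3.61 ± 0.49 SE, limma, adjusted p = 0.00760). DSS 2 was again the lowest of its group, and still lay above every control. Mmp10, stromelysin-2, had 44.3, 6.16 and 19.6 FPKM in the colitis samples and 2.05, 1.95 and 0.440 FPKM in controls. It had the widest spread of the 10 genes among DSS samples, 7.20-fold from DSS 2 to DSS 1, and its mean was 15.8-fold that of control colon (log2 difference 3.00 ± 0.67 SE, limma, adjusted p = 0.0407). The transcripts of Mmp3 and Mmp10 were 81.9% identical over 1347 bases. Mmp3 also shares 284 bases at 95.4% identity with Gm15242, which was not analysed here, so its values are uncertain to that extent.

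Mmp7, matrilysin, lacks the hemopexin domain of most family members and is an epithelial enzyme that activates alpha-defensins in mouse Paneth cells. It had 8.41, 37.2 and 25.05 FPKM in DSS 1, 2 and 3, and each control sample listed it at 0. DSS 2, the lowest DSS sample for most of the other genes, was the highest here, and DSS 1 was the lowest. The log2 difference was 4.40 ± 0.48 SE (limma, adjusted p = 0.00304), and no fold is given because a listed 0 can be a failed estimate: Gapdh, a gene used by every cell, was listed at 0 in DSS 1 and at 2.00, 0.117 and 0.145 FPKM in control 1, 2 and 3, against 21.4 and 36.1 FPKM in DSS 2 and DSS 3. The same limit holds for the control values of Mmp8. Mmp7 overlaps the antisense gene AV064505 over 123 bases of exon. The protocol does not mark strand, and AV064505 was listed at 0 in the 6 samples. Of 7 Paneth cell markers in the files Defa21, Defa22, Defa24 and Defa26 were at 0 in all samples. None of the 2 tested passed, Lyz1 and Itln1, both of which lay lower in DSS at an unadjusted limma p under 0.05. The summed level of these markers was 4.83 to 14.1 FPKM in the colitis samples and 15.9 to 27.2 FPKM in controls.

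Mmp12, the elastase of macrophages, had 1.38, 3.79 and 5.75 FPKM in the colitis samples and 0.549, 0.522 and 0.451 FPKM in controls. By mean level it was the lowest of the 10 genes in DSS, with DSS 1 the nearest to the controls, and the log2 difference was 1.497 ± 0.36 SE (7.18-fold, limma, adjusted p = 0.0447). Mmp14, a membrane-anchored enzyme that activates the Mmp2 precursor, had 17.8, 7.67 and 13.5 FPKM in the colitis samples and 12.06, 12.1 and 12.5 FPKM in controls. The 3 controls were nearly equal and lay inside the range of the DSS samples. Its log2 difference was 0.01, with a 95% interval from -0.63 to 0.65 (limma, adjusted p = 0.982), and the sign of this difference flips to negative under each of 3 other scalings.

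Timp1, a secreted inhibitor induced in inflamed and remodelling tissue, reached the highest level of the 10 genes in DSS, with 109.7, 35.9 and 145 FPKM in the colitis samples and 8.50, 4.27 and 4.63 FPKM in controls. The DSS samples spanned 4.03-fold, with DSS 2 the lowest, and even that sample lay above the highest control. The mean was 16.7-fold that of control colon (log2 difference 3.68 ± 0.52 SE, limma, adjusted p = 0.00955). By mean level Timp1 moved from place 7316 to place 980 among the 12348 tested genes. It lies within Syn1, on the opposite strand and between its exons, and Syn1 was between 0.209 and 0.556 FPKM in the 6 samples.

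Mmp8, Mmp7, Mmp9 and Mmp3 passed in every alternative fit in which they were tested, whereas Mmp12 passed in 4 of 15, Mmp13 in 8 of 16 and Mmp10 in 10 of 16. Leaving out control 2 left 4 of the 10 genes called higher, leaving out control 3 left 5, and leaving out DSS 3 or control 1 left 6. The all-gene count of higher calls fell from 783 to 209, 213, 314 and 322 in the same fits. As deposited, the median log2 difference over all tested genes was 0.13, and it was -0.01 under upper-quartile scaling. The split of all calls was 783 higher to 316 lower as deposited and 505 to 532 under that scaling, with 8 of the 10 genes still higher.

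**Figure D2:**
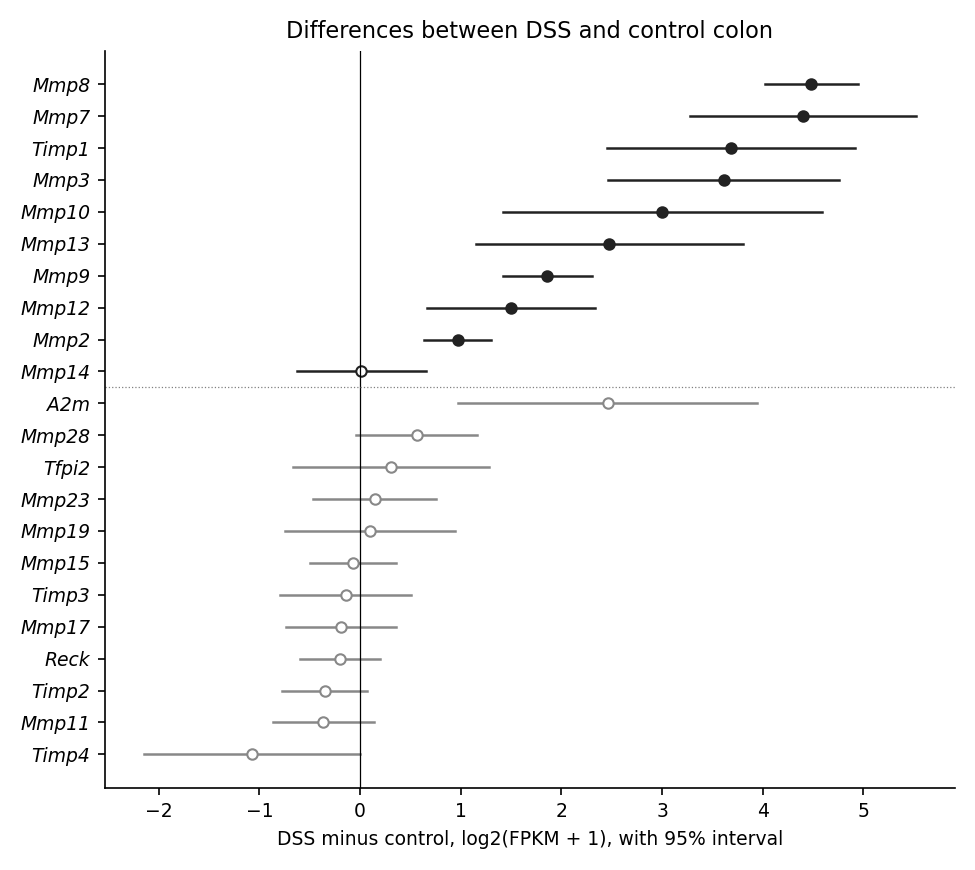
Difference between DSS and control colon on the log2(FPKM + 1) scale (horizontal axis) with its 95% interval, for the 10 genes (black, upper part) and for the other tested metalloproteinase and inhibitor genes (grey). Filled points passed at an adjusted p under 0.05. Intervals are widest for Mmp10 and Mmp13 in the upper part and for A2m in the lower.

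Other genes of the family did not pass the test. Of 14 other metalloproteinase genes 6 were tested and none passed (limma, 0 at an unadjusted p under 0.05), with a median log2 difference of 0.02 against 0.13 over all tested genes. Mmp15, a membrane-anchored enzyme and the most abundant of them, had 15.5 ± 3.31 FPKM in the colitis samples and 16.2 ± 1.67 FPKM in controls. The interval of its log2 difference ran from -0.50 to 0.36. Of 9 other inhibitor genes 6 were tested and none passed (limma, 2 at an unadjusted p under 0.05, A2m and Timp4). Over all tested genes 6.34% were higher and 2.56% lower, so a count of 0 among 6 is near the background in both lists. Timp2, which also takes part in the activation of the Mmp2 precursor by Mmp14, had 23.2 ± 4.74 FPKM in the colitis samples and 29.5 ± 1.82 FPKM in controls, and every DSS sample lay below the controls (log2 difference -0.35, interval -0.77 to 0.07). Timp3, a matrix-bound inhibitor, had 27.6 ± 11.04 and 29.6 ± 6.39 FPKM. A2m, the broad protease trap alpha-2-macroglobulin, had 2.83, 1.69 and 15.5 FPKM in the colitis samples and at most 0.0125 FPKM in controls (limma, adjusted p = 0.0572).

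The 9 metalloproteinase genes together differed between the groups in amount and in makeup. Their summed level was 232, 135 and 217 FPKM in DSS 1, 2 and 3 and 41.8, 39.2 and 38.5 FPKM in control 1, 2 and 3, a ratio of means of 4.89. Over all 23 metalloproteinase genes the ratio was 3.22, and the 9 genes made up 57.02% ± 1.502 of that larger sum in control colon and 86.3% ± 1.34 in DSS. In control colon Mmp2 and Mmp14 made up 80.5% ± 4.93 of the sum of the 9 genes, and in DSS 27.8% ± 3.86. In DSS 1 and DSS 3 the largest shares were those of Mmp3, at 20.4% and 23.9%, followed by Mmp2 at 19.1% and 18.3%. In DSS 2 they were those of Mmp7, at 27.6%, and Mmp2, at 26.4%. The level of Timp1 over the metalloproteinase sum was 0.472, 0.266 and 0.666 in DSS and 0.203, 0.109 and 0.120 in control colon, so it was higher in every DSS sample than in any control. These sums are descriptions of RNA, chosen with the results known, and carry no test.

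**Figure D3:**
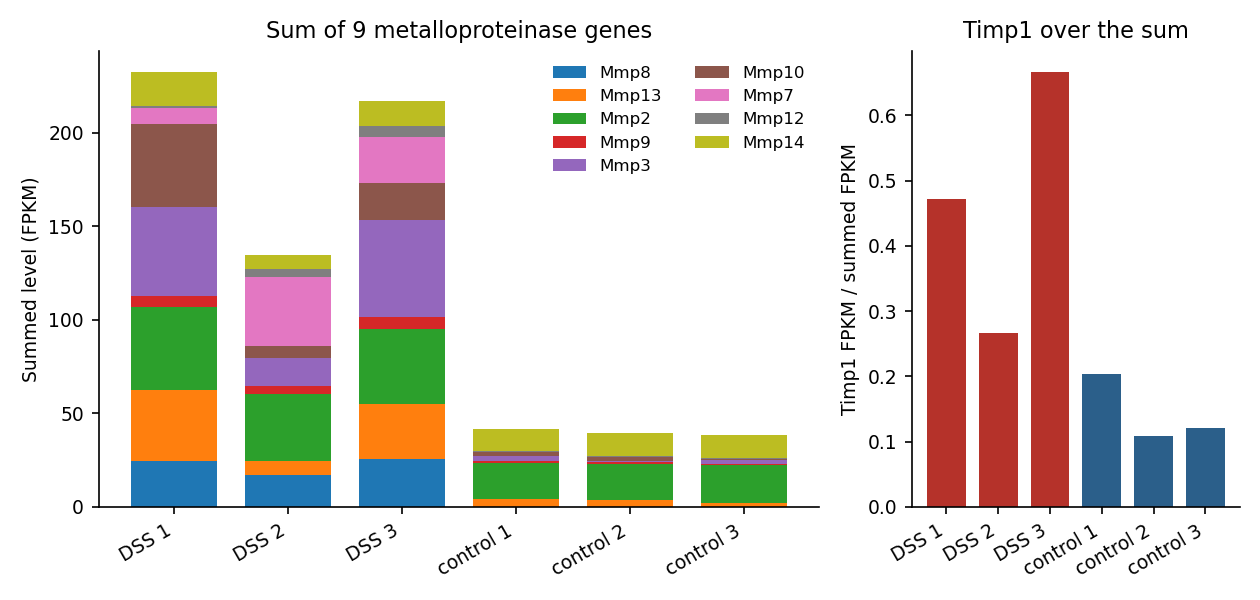
Left, the summed level of the 9 metalloproteinase genes in FPKM (bar height) in each sample, divided by gene (colours). Right, the Timp1 level divided by that sum in DSS (red) and control (blue) samples. The sum lies between 135 and 232 FPKM in the colitis samples and between 38.5 and 41.8 FPKM in controls.

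By mean level the order in control colon was Mmp2, Mmp14, Timp1, Mmp13, Mmp3, Mmp10, Mmp9, Mmp12, Mmp8 and Mmp7. The samples of Mmp2 and Mmp14 did not overlap with each other or with those of the genes after them, whereas neighbours from Mmp13 to Mmp9 overlapped. In DSS the order was Timp1, Mmp2, Mmp3, Mmp13, Mmp7, Mmp10, Mmp8, Mmp14, Mmp9 and Mmp12. There, neighbours from Mmp2 to Mmp14 overlapped in their samples, and so did Timp1 with Mmp2, since Timp1 in DSS 2 (35.9 FPKM) fell within the range of Mmp2. Mmp9 and Mmp12 also overlapped.

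The 10 genes did not vary alike among the DSS samples. DSS 2 was the lowest of the 3 for 8 of them, and DSS 1 was the lowest for Mmp7 and Mmp12. Over all tested genes DSS 2 was the lowest in 49.9%, and over those called higher in 33.6%. Against the control mean, DSS 2 differed by 1.16 for Mmp13, 1.61 for Mmp10, 2.52 for Mmp3 and 2.49 for Timp1 on the log2(FPKM + 1) scale. For the same genes DSS 1 differed by 3.31, 4.27, 4.09 and 4.08 and DSS 3 by 2.96, 3.13, 4.22 and 4.47. Mmp8, Mmp9 and Mmp2 varied little, at 1.25-fold to 1.51-fold between the highest and lowest DSS sample. DSS 2 was also the lowest for 23 of 24 matrix substrate genes, 9 of 10 fibroblast markers and 8 of 8 smooth muscle markers. The same held for 5 of 6 endothelial and 9 of 12 macrophage and monocyte markers, but for only 1 of 10 neutrophil markers. The summed matrix level was 1349, 704 and 1482 FPKM in DSS 1, 2 and 3. The part of tissue makeup in these differences was not tested, and in bulk tissue fewer cells of a type and less RNA per cell cannot be told apart.

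**Figure D4:**
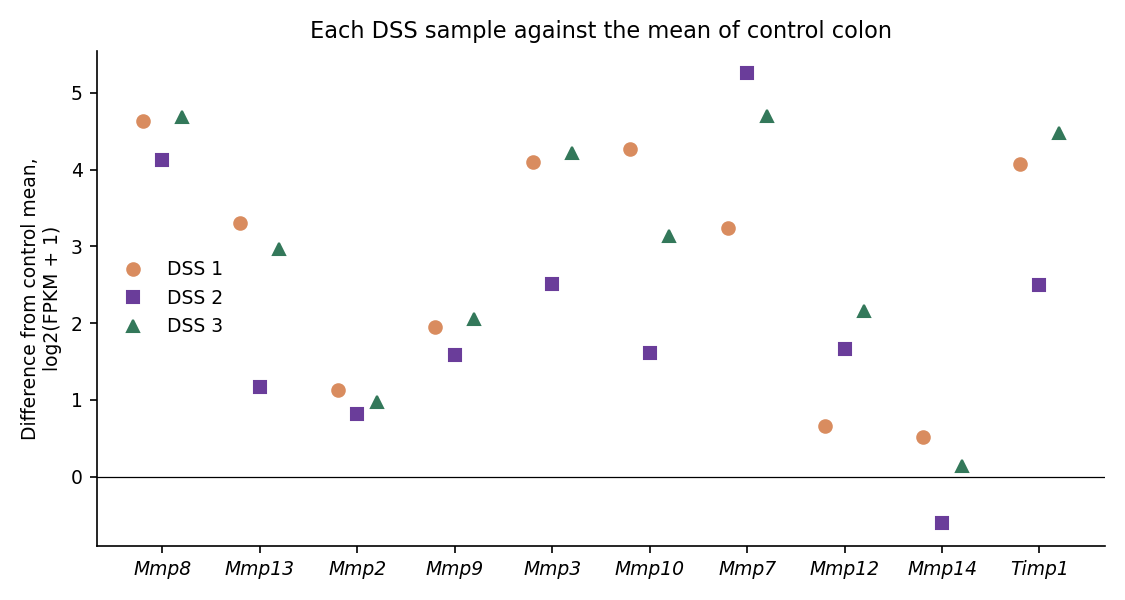
Difference of each DSS sample from the mean of the 3 control samples on the log2(FPKM + 1) scale (vertical axis), with 1 marker per DSS sample. DSS 2 (squares) lies lowest for 8 genes and highest for Mmp7.

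The tested genes with the smallest root mean square difference over the 6 samples, each taken relative to its own control mean, are given for 3 of the 10 genes. For Timp1 the nearest of all was Mmp3 (0.24 on the log2 scale), followed by Serpina3n (0.42) and Cxcl9 (0.42), a chemokine gene induced by interferon-gamma. For Mmp8 they were Myl7 (0.23), Ifitm6 (0.36) and Lcn2 (0.45), which encodes a siderophore-binding granule protein of neutrophils. For Mmp13 they were Wfdc12 (0.31), Chrdl2 (0.38) and Gal (0.39), the gene of the neuropeptide galanin. Wfdc12 was not called, at 12.4, 1.10 and 7.31 FPKM in the colitis samples and 0.209 to 0.510 FPKM in controls. These distances are descriptions over 6 samples.

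On chromosome 9 the metalloproteinase cluster spans 427.1 kb, from the start of Mmp13 at 7272514 to the end of Mmp7 at 7699585 in GRCm38, by GENCODE vM21. It holds 10 metalloproteinase genes. The 6 described here were tested and were higher in DSS, and the other 4 were not tested because they did not reach 1 FPKM. Mmp1a and Mmp1b, the mouse counterparts of interstitial collagenase, were listed at 0 in the 6 samples. Mmp20, known from tooth enamel, was at most 0.121 FPKM, and Mmp27 had 0.191, 0.0849 and 0.138 FPKM in the colitis samples and at most 0.0355 FPKM in controls. Mmp27 is the next gene after Mmp8, which reached 25.5 FPKM in the same samples.

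Genes within 500 kb of the cluster were read in both groups. Of 8 such genes in the files 5 were tested and 2 rose, against 6.34% of all tested genes. This count rests on 5 genes and is a description. Birc2, an inhibitor of apoptosis in TNF signalling, had 17.7 ± 1.53 FPKM in the colitis samples and 8.27 ± 1.81 FPKM in controls (log2 difference 1.03 ± 0.19 SE, limma, adjusted p = 0.0191). Dcun1d5, a factor of cullin neddylation, had 87.8 ± 3.49 and 57.6 ± 8.43 FPKM (log2 difference 0.61 ± 0.15 SE, limma, adjusted p = 0.0498). Tmem123 was at 46.5 ± 10.07 and 30.1 ± 3.52 FPKM (adjusted p = 0.0906), Birc3 at 25.8 ± 5.08 and 29.4 ± 2.103 FPKM and Yap1, the effector of Hippo signalling, at 16.6 ± 3.61 and 15.99 ± 1.65 FPKM. Dync2h1, Cep126 and Mir5618 did not reach the level for testing. Birc3 and Yap1 had intervals of -0.60 to 0.20 and -0.41 to 0.48 on the log2 scale.

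**Figure D5:**
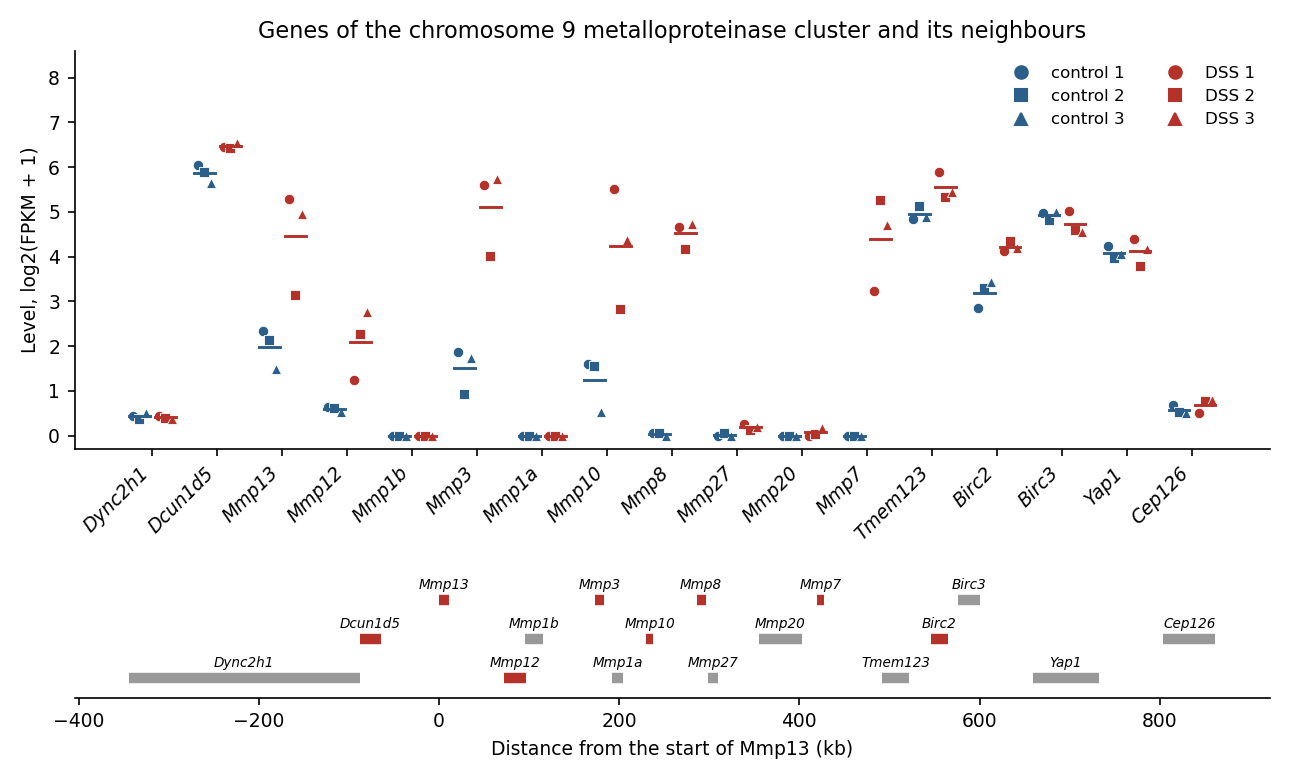
Upper panel, level on the log2(FPKM + 1) scale of each gene of the chromosome 9 cluster and its neighbours, without AV064505 and Mir5618, which were listed at 0 throughout, in control (blue) and DSS (red) samples with a line at each group's mean, in chromosome order. Lower panel, the same genes by distance in kb from the start of Mmp13, red where called higher in DSS. Mmp1a, Mmp1b, Mmp20 and Mmp27 lie near 0 between genes that reach 5 FPKM or more in DSS.

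The remaining 4 genes lie apart from the cluster and from each other in GRCm38. Mmp2 is on chromosome 8, 92827291 to 92853420, Mmp9 on chromosome 2, 164940780 to 164955850, Mmp14 on chromosome 14, 54431612 to 54445364, and Timp1 on chromosome X, 20870166 to 20874735. Within the cluster Mmp12 runs from 7344381 to 7369499, Mmp3 from 7445822 to 7455975, Mmp10 from 7502352 to 7510240 and Mmp8 from 7558456 to 7568485. The 3 prime end of Mmp12 overlaps Mmp1b, on the opposite strand, by 157 bases of exon.

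Of 22 genes of proteases known to activate metalloproteinase precursors and of the plasminogen system 14 were tested, none rose and Pcsk6 fell (limma, 3 at an unadjusted p under 0.05). Over all tested genes 6.34% were higher and 2.56% lower, and the list's count is near that background. Pcsk6, a furin-like convertase, had 1.54, 0.62 and 0.71 FPKM in the colitis samples and 3.94, 4.18 and 3.90 FPKM in controls (log2 difference -1.39 ± 0.21 SE, adjusted p = 0.0103). Furin itself was at 7.70 ± 1.24 and 6.35 ± 0.649 FPKM. Plau, the urokinase that makes plasmin, was at 7.89 ± 4.98 and 7.80 ± 1.80 FPKM, and plasminogen (Plg) was listed at 0 in the 6 samples. Plaur, the urokinase receptor, had 18.7, 32.95 and 36.9 FPKM in the colitis samples and 6.41 and 5.24 FPKM in control 2 and control 3, but 32.0 FPKM in control 1. Serpine2, a serpin that blocks thrombin and plasminogen activators, rose from 8.58 ± 0.883 to 29.7 ± 13.9 FPKM (limma, adjusted p = 0.0441).

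Cytokines known to act on metalloproteinase genes rose in part. Of 13 listed genes, among them Bsg, which is not a cytokine gene, 9 were tested and 7 rose, namely Il1a, Il1b, Tnf, Il6, Osm, Il11 and Ifng. Of these 7, all but Il1b passed the filter through DSS samples alone. Over all tested genes 6.34% were called higher, and of those that passed through DSS samples alone 66.8% were. The median log2 difference of the 9 was 2.42, against 0.13 over all tested genes. Il11, a cytokine of stromal cells, had 15.3, 2.19 and 4.27 FPKM in the colitis samples and at most 0.123 FPKM in controls (limma, adjusted p = 0.0347), lowest in DSS 2 as Mmp13, Mmp10, Mmp3 and Timp1 were. Il6 was also lowest in DSS 2, though its levels were close, at 11.4, 8.95 and 9.37 FPKM in DSS 1, 2 and 3. Over all tested genes DSS 2 was the lowest in 49.9%. Il1a, Il1b and Osm were highest in DSS 2, at 39.04, 338 and 8.53 FPKM, as Mmp7 was. Tnf and Ifng were lowest in DSS 1 and highest in DSS 3. A link between the cytokine levels and those of the 10 genes was not tested. Bsg, an inducer of metalloproteinases in stromal cells, had 506 ± 35.5 FPKM in the colitis samples and 572 ± 94.9 FPKM in controls. Of 11 receptor genes 4 rose, against 6.34% of all tested genes. Il1r2, the decoy receptor of interleukin-1, went from 0.808 ± 0.575 to 28.2 ± 9.18 FPKM, and Il1r1, the signalling receptor, from 4.55 ± 0.645 to 10.4 ± 1.31 FPKM. Osmr, the receptor of oncostatin M, rose from 2.53 ± 0.668 to 7.90 ± 2.23 FPKM, and Tgfbr1, a TGF-beta receptor, from 8.39 ± 1.28 to 16.4 ± 0.934 FPKM (limma, adjusted p = 0.0192 and 0.0175).

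Of 19 tested transcription factors known to act on metalloproteinase promoters none was called (limma, 4 at an unadjusted p under 0.05), with a median log2 difference of 0.03. Over all tested genes 6.34% were higher and 2.56% lower, so a count of 0 among 19 is near the background. Among AP-1 subunits, Fos had 35.3, 40.97 and 68.3 FPKM in the colitis samples and 82.7, 70.6 and 80.8 FPKM in controls, and Junb had 106.7, 103 and 115 FPKM in the colitis samples and 177, 138 and 188 FPKM in controls. In both genes every DSS sample lay below every control, a pattern of 5 of the 19 tested factors, Jun among them. In 3 of the 19 every DSS sample lay above every control. Fos and Junb both missed the threshold (limma, adjusted p = 0.104 and 0.0538). Jun was at 30.1 ± 2.41 and 39.9 ± 4.87 FPKM. Batf, an AP-1 factor of leukocytes, was at 3.15 ± 1.66 and 1.15 ± 0.249 FPKM (adjusted p = 0.103). Jund had 0.466 FPKM in sample DSS 2, against 100.2 FPKM or more in each of the other samples. That low value can be a failed estimate, as can the listed 0 of Gapdh in DSS 1. These values are RNA levels in whole tissue.

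Among 24 tested matrix genes whose proteins these enzymes cut 1 rose, a share near the 6.34% over all tested genes. It was Spp1, the gene of osteopontin, a bone and wound matrix protein that Mmp3 and Mmp7 can cleave, and it had 13.7, 16.9 and 28.2 FPKM in the colitis samples and 1.21, 0.295 and 0.269 FPKM in controls (limma, adjusted p = 0.00116). The median log2 difference of the 24 genes was 0.40, against 0.13 over all tested genes. Col1a2, a chain of type I collagen, had 85.8, 40.7 and 117 FPKM in the colitis samples and 33.5 to 36.6 FPKM in controls, with the groups apart and adjusted p = 0.111. Col4a1, of basement membrane, had 50.6, 19.1 and 49.2 FPKM in the colitis samples and 19.3 to 25.0 FPKM in controls, and Eln, elastin, had 11.2, 3.92 and 26.0 FPKM in the colitis samples and 10.2 to 10.4 FPKM in controls. In Col4a1 and Eln, DSS 2 lay below every control.

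Among markers of other cells of the colon wall, those of neutrophils differed most between the groups. Over all tested genes 6.34% were higher and 2.56% lower. In the marker lists of other cells calls were few, and a single call is near that background. All 10 tested neutrophil markers rose, of which Stfa2l1, Fpr1, Fpr2, Cxcr2, Trem1 and Csf3r passed the filter through DSS samples alone, and their summed level was 4122 to 7046 FPKM in the colitis samples and 7.12 to 31.5 FPKM in controls. Retnlg, Stfa2l1, S100a8 and S100a9 had the smallest p, and Stfa2l1 was listed at 0 in the controls. Ly6g was not analysed here. The 4 tested granule genes, Lcn2, Ltf, Itgam and Ngp, were also called higher, of which Ltf and Ngp passed the filter through DSS samples alone. Of the 5 not tested, Mpo, the gene of myeloperoxidase, transcribed in immature neutrophils, was at most 0.0649 FPKM in any sample. Elane and Ctsg were at most 0.125 and 0.337 FPKM. Camp had 0.786, 2.21 and 4.28 FPKM in the colitis samples and at most 0.406 FPKM in controls. Prtn3 had 0.761, 1.21 and 1.46 FPKM in the colitis samples and at most 0.395 FPKM in controls. The summed neutrophil markers were 4122, 7046 and 6734 FPKM in DSS 1, 2 and 3, and DSS 2 was the lowest for 1 of the 10. The largest parts of the sum in DSS 2 were S100a8 and S100a9, at 3837 and 2880 FPKM. Mmp8 and Mmp9 were lowest in DSS 2, with 1.51-fold and 1.47-fold between the highest and lowest DSS sample. Of the 4 tested granule genes Ltf was also lowest there. The marker changes accompanied the rise of Mmp8 and Mmp9 between the groups, and their part in it was not tested. Of 12 macrophage and monocyte markers Cd14 rose, and their summed level was 783 to 1045 FPKM in the colitis samples and 571 to 705 FPKM in controls, beside the rise of Mmp12. Adgre1, the F4/80 antigen, had 6.45 ± 0.548 and 4.65 ± 0.708 FPKM (adjusted p = 0.168).

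Fibroblast markers are given beside Mmp2, Mmp3, Mmp13 and Timp1, whose cells of origin bulk tissue does not show. The markers had a summed level of 541 to 773 FPKM in the colitis samples and 515 to 636 FPKM in controls. Of 10 tested Pdpn, podoplanin, rose and Cd34 fell, and Pdgfra, a defining receptor, was at 9.48 ± 0.0583 and 8.35 ± 0.340 FPKM (adjusted p = 0.466). Smooth muscle markers summed to 1269 to 3543 FPKM in the colitis samples and 3801 to 4787 FPKM in controls, with Tpm2 called lower of 8 tested. Of 10 simple epithelium markers Krt8 and Krt19 fell, and the list summed to 8516 to 10030 FPKM in the colitis samples and 12764 to 16664 FPKM in controls, which shows the labelled tissue's epithelium in both groups. None of 6 endothelial markers passed (limma, 1 at an unadjusted p under 0.05), 1 of 4 tested lymphocyte markers rose, Cd3g, and squamous epithelium markers summed to at most 6.53 FPKM in any sample. Single calls in these lists are near the shares over all tested genes, 6.34% higher and 2.56% lower. The 2 of 10 lower in simple epithelium are a larger share, and 4 had an unadjusted p under 0.05 (limma, median log2 difference -0.37). In smooth muscle 6 of 8 had an unadjusted p under 0.05 (limma, median log2 difference -1.12, against 0.13 over all tested genes). The part of the marker differences in the 10 genes' values was not tested.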

How the data were processed

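The members and the gene lists were chosen with earlier results of these data known. The authors deposited 1 FPKM value per gene and sample, as the column names state (per the file headers). The submitters' processing notes name TopHat2 2.1.1 and mm10. For the software behind the FPKM values and for the gene models used, a name is not given in the sources used here. The labels' protocols name a kit that does not keep strand. Depth is unknown, since low values showed no whole-read steps, and no counting intervals are given. FPKM summed to between 609544 and 678076 per sample, and Pearson correlations of log2(FPKM + 1) were 0.936 to 0.961 within DSS and 0.971 to 0.986 within controls.

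A model with group as its only term was fitted to log2(FPKM + 1) of 12348 genes by limma 3.58.1 (R 4.3.3), with trended and robust moderation and two-sided tests, after being tested on simulated data. Genes named were the 10 members, called genes of the 2 other family lists, up to 4 called genes with the smallest p in each further list, genes within 500 kb of the cluster, and the 3 nearest patterns of Mmp8, Mmp13 and Timp1. Other genes named were chosen after their values were seen. Positions are from GENCODE vM21. BLAST+ 2.17.0 searched for copies at 95% identity over at least 200 bases. Python 3.11.15 with matplotlib 3.10.9 made the plots. Alternatives covered pseudocounts, filters, scalings, moderation, a replicate block and each sample left out.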

Additional observations from a re-analysis of the deposited data

How the results depend on the processing

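Mmp3, Mmp7, Mmp8 and Mmp9 passed in every alternative in which they were tested. Mmp2 missed the threshold without control 2 (adjusted p = 0.0523), and Timp1 without control 2 or control 3 (adjusted p up to 0.0519). Mmp10, Mmp12 and Mmp13 missed it in 6, 11 and 8 alternatives, with adjusted p up to 0.137, 0.141 and 0.141. Mmp9 and Mmp12 were not tested with the filter at 5 FPKM. With 1 sample left out, 4 to 8 members were called higher, and all-gene counts lay between 209 and 1165 higher and between 79 and 606 lower. The counts were 505 and 532 under upper-quartile scaling and 517 and 503 under median-of-ratios scaling. The log2 difference of Mmp14, never called, turned to -0.15 and -0.14 under these scalings and to -0.039 when every sample was scaled to the same sum, and ranged from -0.24 to 0.32 with 1 sample left out, being negative without DSS 1 and without DSS 3. The cause was not tested. With no filter 6 members were called, with the filter at 0.1 FPKM 8, and with that at 5 FPKM 7 of 8 tested. With the replicate number as a block 6 members were called, with 640 genes higher and 255 lower. The numbers were not taken as pairs, since the correlations of same-numbered samples' deviations were 0.0818, 0.129 and 0.00308. DSS 1 and DSS 2 matched the control of their own number best, and DSS 3 did not. The ratio of summed metalloproteinase levels ranged from 4.28 to 5.64. The depth behind low levels, such as those of Mmp8 in controls, is unknown.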
